A study of Mus musculus with 3 samples.

Results

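Foxf2 is a forkhead transcription factor of the mesenchyme, and its tagged protein was mapped on chromatin of the developing mouse tongue. The regions described here are the GC-rich promoter peaks of that map. A peak was taken where its midpoint lay in the stretch that begins 1000 bp before any transcription start site (TSS) of the GENCODE basic set and ends 100 bp after it, and where G plus C made up 55% or more of the central 200 bp. The rule uses position and sequence and no measured value. It found 987 peaks among the 25704 on the main chromosomes of mm10, and among the 2191 peaks in promoters. At the threshold itself, 39 promoter peaks had exactly 55% G plus C and 26 had 54.5%.

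The study carried out anti-FLAG ChIP-seq on embryonic tongues at E12.5. All embryos were Foxf2FLAG/FLAG: both copies of the endogenous Foxf2 gene carried a 3xFLAG tag placed by CRISPR/Cas9 editing, so that the ChIP and the input came from the same genotype. The series has 2 FLAG ChIP libraries and 1 input library without antibody, and 75 tongues are stated on the label of each, with no word on whether they were shared between libraries. Whole tongues hold mesenchyme, muscle precursors, epithelium and vessels, and a FLAG ChIP from untagged tissue is not among the samples. The peak list has 1 score and 1 focus ratio per peak and no value per library. No replicate comparison was therefore possible, the depth was unknown, and the labelled tissue could not be checked against marker genes. All tests below compare regions of this 1 list. Regions are not biological replicates, neighbouring regions can share sequence or a gene, and a p-value here speaks of this list alone.

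Forkhead proteins bind DNA through a winged-helix domain, and most of them recognise variants of a short A-rich and T-rich core. It was searched here on both strands in 4 forms, all of them called the forkhead core: the form GTAAACA, also called the strict core, the form ATAAACA, the form GTAAATA and the form ATAAATA. Many mammalian promoters lie in CpG islands, stretches rich in G and C in which CpG pairs have been kept. Such promoters are bound by SP and KLF, ETS, NF-Y and NRF1 factors and often start transcription in both directions. An A-rich and T-rich forkhead core is rare in sequence of this composition, so that a match there is easy to see by eye.

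The following windows show this contrast in 3 of the peaks with the highest scores that lay outside annotated exons. They are 200 bp long, centred on the peak, written 5′ to 3′ on the plus strand of mm10, and read from the RefSeq copy of the same assembly, GRCm38.p6. Capitals mark the forkhead core. A core on the minus strand reads TGTTTAC or TGTTTAT here. The window at Pik3ca, which encodes a catalytic subunit of phosphoinositide 3-kinase, has 63% G plus C and a single strict core (score 123.8, 520 bp upstream of the TSS). The window at Btbd8 has 56.5% G plus C and also a single strict core (score 95.2, 233 bp upstream). The window at Mir99ahg, a noncoding RNA that hosts microRNAs, has 55% G plus C and no core (score 74.9, 112 bp upstream). It does hold GCAAACA and, on the minus strand, CTAAACA, near relatives of the core that are counted below and not marked here.
Pik3ca, chr3:32397051-32397250: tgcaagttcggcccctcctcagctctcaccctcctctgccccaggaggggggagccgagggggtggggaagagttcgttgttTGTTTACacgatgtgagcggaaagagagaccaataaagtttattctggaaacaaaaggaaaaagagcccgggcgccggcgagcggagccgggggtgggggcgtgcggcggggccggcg
Btbd8, chr5:107437664-107437863: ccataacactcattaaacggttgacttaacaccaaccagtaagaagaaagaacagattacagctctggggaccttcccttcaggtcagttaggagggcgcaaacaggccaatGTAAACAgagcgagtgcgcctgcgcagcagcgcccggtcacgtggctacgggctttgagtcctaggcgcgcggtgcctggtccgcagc
Mir99ahg, chr16:77500004-77500203: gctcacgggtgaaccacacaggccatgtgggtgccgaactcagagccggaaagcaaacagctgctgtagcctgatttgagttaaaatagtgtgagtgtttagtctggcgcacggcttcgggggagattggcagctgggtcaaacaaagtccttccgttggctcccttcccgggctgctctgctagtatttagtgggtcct

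Shorter stretches of 61 bp, centred on the core, are shown for 6 further high-scored peaks with a strict core. They are written in the same way. Xpo7 encodes a nuclear export receptor, Adipor2 an adiponectin receptor, Ddx5 an RNA helicase and Bcl2l11 a pro-apoptotic protein of the BCL2 family. Scores were 84.4 at Ubald1, 82.0 at Adipor2, 73.8 at Xpo7, 62.3 at Ddx5, 60.4 at Tprgl and 56 at Bcl2l11. The core is the same 7 bases in each, while the surrounding 200 bp ranged from 60% G plus C at Adipor2 and Tprgl to 71.5% at Bcl2l11.
Ubald1, chr16:4880646-4880706: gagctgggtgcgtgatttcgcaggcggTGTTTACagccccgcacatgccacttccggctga
Adipor2, chr6:119388873-119388933: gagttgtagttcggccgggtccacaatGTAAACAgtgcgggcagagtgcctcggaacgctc
Xpo7, chr14:70766807-70766867: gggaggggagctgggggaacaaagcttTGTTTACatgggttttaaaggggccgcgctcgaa
Ddx5, chr11:106788834-106788894: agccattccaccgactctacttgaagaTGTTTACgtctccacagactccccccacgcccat
Tprgl, chr4:154160862-154160922: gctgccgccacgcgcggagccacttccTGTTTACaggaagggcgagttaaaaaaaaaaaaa
Bcl2l11, chr2:128125784-128125844: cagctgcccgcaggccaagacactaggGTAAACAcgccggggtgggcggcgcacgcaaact

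The next 4 carried the form ATAAACA, and stand for the peaks whose core differs from the strict form in its first base. Abca1 encodes a cholesterol exporter and Ddit4 an inhibitor of mTORC1 signalling. Scores were 52.9 at Abca1, 51.6 at Ddit4, 51.1 at 4933434E20Rik and 48.8 at Sbf2.
Abca1, chr4:53159979-53160039: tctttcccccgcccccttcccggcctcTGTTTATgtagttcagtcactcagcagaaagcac
Ddit4, chr10:59952126-59952186: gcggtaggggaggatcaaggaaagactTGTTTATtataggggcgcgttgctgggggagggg
4933434E20Rik, chr3:90052166-90052226: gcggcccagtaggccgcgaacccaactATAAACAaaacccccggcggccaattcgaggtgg
Sbf2, chr7:110615311-110615371: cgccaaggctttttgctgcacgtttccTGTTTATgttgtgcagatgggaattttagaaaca

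The last 3 are the central 61 bp of high-scored peaks with no core anywhere in their 200 bp, and so have no capitals. On the minus strand, Ssbp2 holds TTAAACA and Hexim2 GTCAACA, near relatives of the core that are counted below. Hexim2 encodes an inhibitor of the elongation factor P-TEFb. Scores were 37.3 at Ssbp2, 37.2 at Hexim2 and 35.6 at Surf6.
Ssbp2, chr13:91460778-91460838: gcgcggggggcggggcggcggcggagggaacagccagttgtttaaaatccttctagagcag
Hexim2, chr11:103132986-103133046: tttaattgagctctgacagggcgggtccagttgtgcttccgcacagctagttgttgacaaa
Surf6, chr2:26902951-26903011: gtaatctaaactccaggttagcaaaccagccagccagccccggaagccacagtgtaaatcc

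Within the stretch that the rule allows, the peaks sat close to the start of transcription. Their median position was 76 bp upstream of the nearest TSS, against 280 bp upstream for the 1204 promoter peaks of lower GC content. Of the 987, 532 (53.9%) lay within 100 bp of a TSS. The centre fell outside transcripts in 353 peaks (35.8%), in an untranslated exon of a protein-coding gene in 332 (33.6%), in an intron in 197 (20%), in a noncoding exon in 59 and in a coding exon in 46. A protein-coding TSS was within reach for 871, and 116 lay at noncoding starts only. TSSs on both strands were present at 142 peaks, 14.4% (exact 95% interval 12.3 to 16.7), and at 5.81% of promoter peaks of lower GC content (odds ratio 2.72, two-sided Fisher's exact adjusted p = 5.53e-11). The rule confined all promoter peaks to this stretch and split the 2 kinds by composition. The differences in position and in starts on both strands can therefore follow from the choice. They are descriptions, and no such values are given for GC-rich promoters without a peak.

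**Figure D1:**
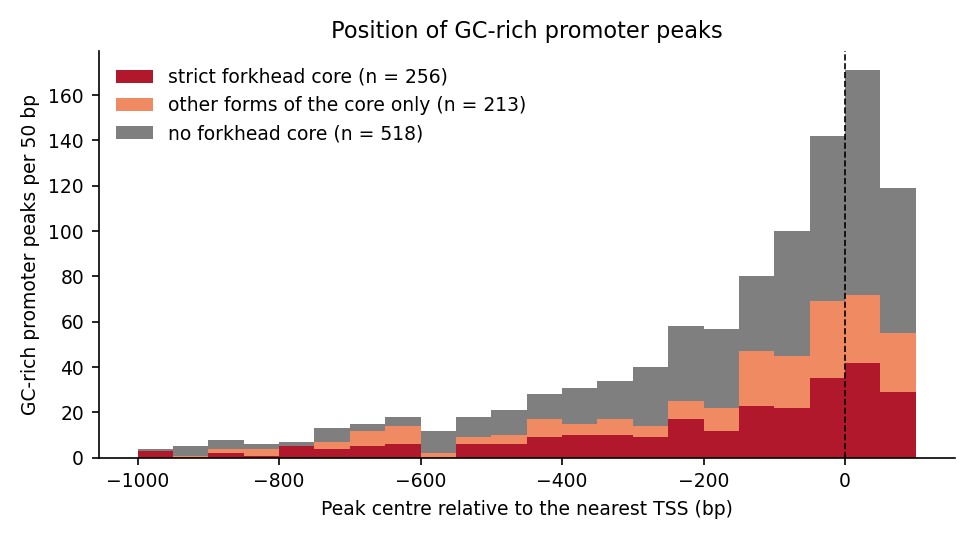
The number of GC-rich promoter peaks is plotted per 50 bp against the position of the peak centre relative to the nearest TSS (negative is upstream), stacked by the form of forkhead core in the central 200 bp. The peaks pile up at the start site, with a median 76 bp upstream. The medians were -102.5 bp with a strict core, -79 bp with other forms only and -66 bp with no core, a difference that was not tested.

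The sequence of most peaks resembled that of CpG islands, although islands themselves were not mapped here. The median G plus C share was 63.5%, with a range from 55% to 86%. The ratio of observed to expected CpG pairs had a median of 0.839, against 0.434 in promoter peaks of lower GC content and 0.459 in the 1343 GC-rich peaks outside promoters. A ratio of 0.6 or more was reached by 82.6% of the GC-rich promoter peaks and by 38.6% of the GC-rich peaks elsewhere (odds ratio 7.55, Fisher's exact adjusted p = 4.73e-104). The rule asks for GC-rich sequence at a promoter, which many CpG islands have, so this comparison describes the choice. The ratio in GC-rich promoters without a peak is not given. No base was repeat-masked in 565 windows (57.2%). The groups share the floor of 55% but were not matched for G plus C above it: the median was 63.5% in promoters and 58.5% elsewhere.

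The X chromosome had 9 of these peaks and the Y chromosome none, of 367 and 7 peaks in all. Per 100 protein-coding genes with a GC-rich promoter window, X had 2.33 peaks, and the autosomes had 7.08 (chromosome 10) to 12.2 (chromosome 18). The whole list was also poor on X, as the autosomes had 635 (chromosome 19) to 2028 peaks (chromosome 2) of any kind. GC-rich promoter peaks were 2.45% of all peaks on X, and 2.61% (chromosome 13) to 6.93% (chromosome 19) on the autosomes. The 9 include peaks at Hdx, a homeobox gene (47.8), and at the forkhead gene Foxo4 (10.9). The sex of the embryos is not given in the labels.

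The forkhead core was present in the central 200 bp of 469 of the 987 peaks, 47.5% (exact 95% interval 44.4 to 50.7). In flanking windows of the same size, 2000 bp away on each side, its share was 18%, a 2.64-fold difference (exact McNemar p = 2.21e-41). The strict core was present in 256 peaks, 25.9% (interval 23.2 to 28.8), and in 3.19% of the flanks, an 8.13-fold difference (exact McNemar p = 3.87e-45). ATAAACA was present in 143 peaks, GTAAATA in 55 and ATAAATA in 34. A single core was present in 443 peaks, 24 had 2 and 2 had 3 or more. Most of the peaks with a forkhead core therefore had exactly 1.

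The flanks were not matched to the peaks for base composition, so GC-rich promoters without a peak were counted in addition. Of 21938 protein-coding genes, 11649 had a GC-rich window of 200 bp centred 100 bp upstream of their 5′-most TSS. Of these, 10496 had no promoter peak, and their median G plus C share was 63.5%, the same as in the peaks. The core was present in 234 of these windows (2.23%) and the strict core in 49 (0.467%). Over all protein-coding genes the shares were 9.19% and 2%. A forkhead core was thus rare in GC-rich promoters without a peak, and 47.5% of the peaks had one. Promoters with a peak were left out of this control. Its windows also stand at a fixed distance from the TSS, whereas those of the peaks are centred on the peak. The difference between the 2 shares was not tested.

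The share of peaks with a core fell as G plus C rose, and so did the share among promoters without a peak. It was 58.1% against 4.15% at 55 to under 60% G plus C, 51.3% against 2.34% at 60 to under 65%, 45.4% against 1.36% at 65 to under 70%, and 31.8% against 0.575% at 70% or more. The strict core took 28.4% of the peaks in the lowest of these ranges and 22.3% in the highest. In promoters without a peak its share went from 0.916% of 3057 windows to 0.0384% of 2607. The latter is at the floor of what such a count can show, so no relative change was read from it and none was tested. Median peak scores in the same order were 15.5, 15.7, 14.6 and 13.3.

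**Figure D2:**
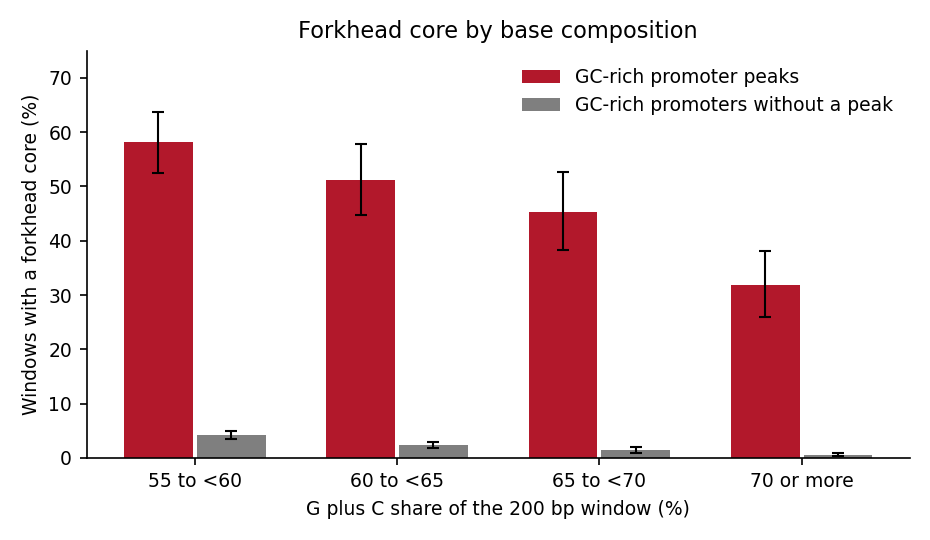
Bars give the percentage of 200 bp windows that hold a forkhead core, for GC-rich promoter peaks and for GC-rich promoters of protein-coding genes without a peak, in 4 ranges of G plus C share. Error bars are exact 95% intervals; the share fell from 58.1% to 31.8% in peaks and from 4.15% to 0.575% in promoters without a peak.

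The share of GC-rich promoter peaks with a core was then set beside that of other peaks of the list. The rule chose members by the G plus C share of the same 200 bp in which this A-rich and T-rich core was counted. A lower share than in promoter peaks of lower GC content therefore follows in part from the choice, and is a description. GC-rich peaks outside promoters were also less GC-rich, with a median of 58.5% against 63.5%. The core was present in 70.4% of promoter peaks of lower GC content (odds ratio 0.380, Fisher's exact adjusted p = 8.17e-27) and in 59.5% of GC-rich peaks outside promoters (odds ratio 0.616, exact adjusted p = 2.54e-08). Among peaks scored at or above the median of the list, 16.2, neither difference passed: the odds ratios were 0.827 (unadjusted Fisher's exact p = 0.206) and 1.10 (p = 0.528), the second in the opposite direction. For the strict core the shares were 29.7% in promoter peaks of lower GC content (odds ratio 0.831, 95% interval 0.685 to 1.01, exact adjusted p = 0.0735) and 30.4% in GC-rich peaks outside promoters (odds ratio 0.803, exact adjusted p = 0.0297). Where a core was present at all, it was the strict form, which has more G and C than the other 3 forms and is favoured by the choice of GC-rich windows, in 54.6% of the GC-rich promoter peaks and in 42.1% of the promoter peaks of lower GC content (odds ratio 1.65, exact adjusted p = 2.87e-05). In GC-rich peaks outside promoters that share was 51.1% (odds ratio 1.15, 95% interval 0.910 to 1.46, exact adjusted p = 0.277). The form ATAAACA was present in 14.5% of GC-rich promoter peaks and 33.2% of promoter peaks of lower GC content, and the form ATAAATA in 3.44% and 12%.

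Within the peaks, the core lay at the centre. Of the 469 peaks with a core, 370 had it within 20 bp of the centre, 78.9% (interval 74.9 to 82.5), and 261 (55.7%) within 10 bp. The share within 20 bp was 73.0% in promoter peaks of lower GC content (odds ratio 1.38, exact adjusted p = 0.0297). The rule split these peaks by the composition of the same window in which the core was searched. Windows of lower GC content can hold more matches away from the centre, so this comparison is a description. The core lay on the coding strand of the nearest gene in 252 of 469 peaks, 53.7% (interval 49.1 to 58.3, exact binomial p = 0.116). A preferred orientation relative to transcription was not detected.

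The score of a peak, on which the authors' caller ranks it, went with the presence of a core. In the 256 peaks with a strict core the score had a lowest value of 10.1, a median of 22.5 and a highest value of 135.7. In the 213 with other forms only, the values were 10.1, 19.0 and 92.8. In the 518 without a core they were 10.1, 12.3 and 74.9. The 3 ranges overlap, and the medians stand in the order strict, other, none. The core was present in 80.6% of the highest-scored 25% of the GC-rich promoter peaks (23.15 or more) and in 19.7% of the lowest (11.5 or less; odds ratio 16.9, Fisher's exact adjusted p = 2.79e-43). For the strict core the shares were 50.2% and 8.03% (odds ratio 11.5, exact adjusted p = 5.47e-26). Of the 100 highest-scored peaks, 92 had a core and 66 the strict one, against 14 and 4 of the 100 lowest.

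The focus ratio, which the caller gives as a measure of how tightly reads gather at the centre, went the same way. Its median was 0.802 with a strict core, 0.768 with another form and 0.680 without a core. The core was present in 80.3% of the sharpest 25% of the peaks (0.802 or more) and in 12.9% of the bluntest 25% (0.659 or less; odds ratio 27.7, exact adjusted p = 1.72e-54). High-scored, sharp peaks in GC-rich promoters therefore mostly had a forkhead core, and low, broad ones mostly had none.

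**Figure D3:**
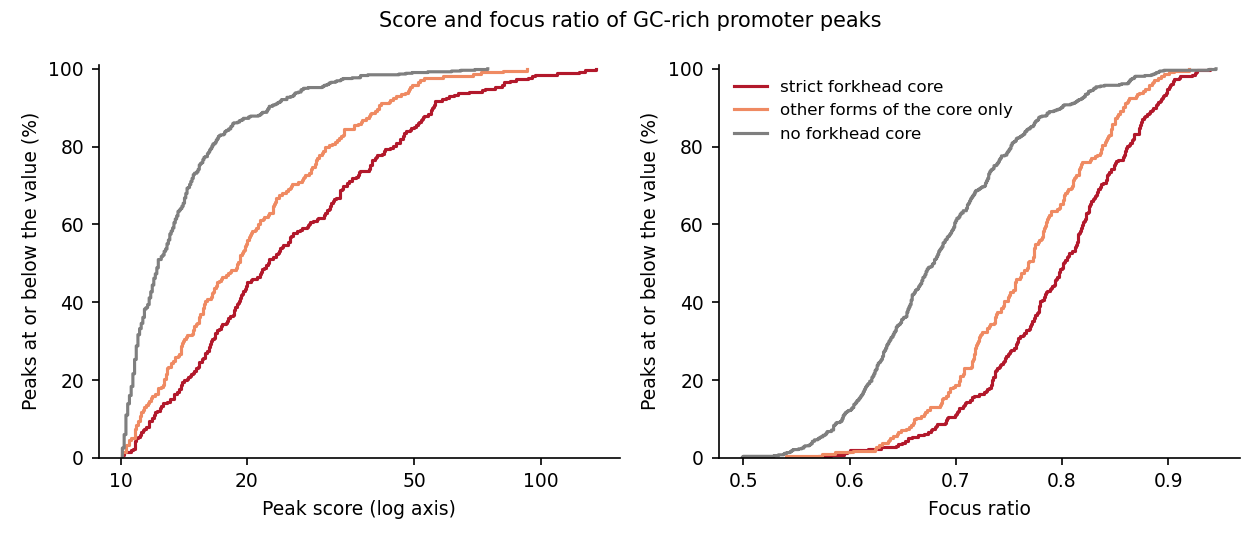
Cumulative curves give the percentage of GC-rich promoter peaks at or below a peak score (left, log axis) and at or below a focus ratio (right), for peaks with a strict core, with other forms only and with no core. The curve without a core lies to the left in both panels, with a median score of 12.3 against 22.5 with a strict core.

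The same split was made in promoter peaks of lower GC content, where it was narrower. Their median scores were 17.3 with a strict core, 15.8 with another form and 14.0 without. Of the GC-rich promoter peaks with a strict core, 67 (26.2%) were in the highest-scored decile of the whole list (38.6 or more), against 12% of those of lower GC content (odds ratio 2.59, exact adjusted p = 2.11e-05). Without a core, 25.3% of the GC-rich promoter peaks were in the lowest decile (10.8 or less), against 16.0% (odds ratio 1.78, exact adjusted p = 0.00190). By focus ratio, 49.0% of the GC-rich promoter peaks without a core were in the bluntest decile of the list (0.675 or less), against 24.2% (odds ratio 3.02, exact adjusted p = 2.58e-13). With a strict core the shares in that decile were 6.64% and 8.12% (odds ratio 0.805, 95% interval 0.405 to 1.55, exact adjusted p = 0.584). With a strict core, GC-rich promoter peaks were thus more often among the highest scores than other promoter peaks, and without a core more often among the lowest and the broadest. The rule split the 2 groups by the composition of the window searched for the core. The classes with and without a core are therefore not alike in both, and these differences are a description.

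Taken without regard to the core, the GC-rich promoter peaks had a median score of 14.8, against 15.45 for promoter peaks of lower GC content, 15.4 for GC-rich peaks outside promoters and 16.2 for all other peaks. In the highest-scored decile were 10.4% of them, 7.97% of promoter peaks of lower GC content (odds ratio 1.34, 95% interval 0.994 to 1.82, exact adjusted p = 0.0721) and 10.1% of all other peaks (odds ratio 1.04, interval 0.835 to 1.28, exact adjusted p = 0.736). With protein-coding TSSs only, the former odds ratio was 1.54 (unadjusted Fisher's exact p = 0.0208). The lowest-scored decile held 16.0% of them and 10.01% of all other peaks (odds ratio 1.71, exact adjusted p = 2.58e-08). The bluntest decile by focus ratio held 30.1%, against 14.8% of promoter peaks of lower GC content (odds ratio 2.48, exact adjusted p = 2.49e-17), and the sharpest decile 6.89% against 6.56% (odds ratio 1.05, interval 0.741 to 1.49, exact adjusted p = 0.797).

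GC-rich promoter peaks stood more alone than other peaks. Another peak lay within 50 kb of 64.4% of them, against 70.9% of promoter peaks of lower GC content (odds ratio 0.743, exact adjusted p = 0.00212) and 77.4% of all other peaks (odds ratio 0.528, exact adjusted p = 5.91e-19). The share was 67.2% for those with a core and 62.0% for those without (odds ratio 1.26, 95% interval 0.958 to 1.65, exact adjusted p = 0.114).

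The question was then turned around, to ask how many forkhead sites of the genome had a peak. This count was added after the data had been seen. Among strict sites in promoters, with the limits given above, 623 had 55% or more G plus C in the 200 bp around them, and 248 of these had a peak centre within 50 bp, 39.8% (interval 35.9 to 43.8). In promoters of lower local G plus C, 344 of 9125 strict sites had one, 3.77% (odds ratio 16.9, Fisher's exact p = 2.93e-152, adjusted over 10 such tests, as are the values that follow). Within the GC-rich promoters, the share was 30.6% (151 of 493) at 55 to under 65% G plus C and 74.6% (97 of 130) at 65% or more (odds ratio 6.66, exact adjusted p = 2.46e-19). It was 63.8% (201 of 315) where the ratio of observed to expected CpG was 0.6 or more and 15.3% (47 of 308) below that (odds ratio 9.79, exact adjusted p = 1.56e-36). Nearly 3 in 4 of the strict sites in the most GC-rich promoter sequence thus had a peak.

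Outside promoters the shares were lower, and they rose with G plus C in the same order. Of 6532 strict sites in GC-rich sequence outside promoters, 429 had a peak, 6.57%, against the 39.8% in promoters (odds ratio 9.41, exact adjusted p = 5.14e-105). These sets were not matched for G plus C above 55%. A share of 65% or more was reached by 130 of 623 sites in promoters and 158 of 6532 outside. At 55 to under 65% G plus C, 5.46% of sites outside promoters had a peak, against 30.6% in promoters. At 65% G plus C or more outside promoters, 81 of 158 had one, 51.3% (interval 43.2 to 59.3), against 74.6% in promoters. Below 55% outside promoters, the share was 1.45% of 401659 sites. GC-rich surroundings and a promoter position thus each went with a higher share.

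**Figure D4:**
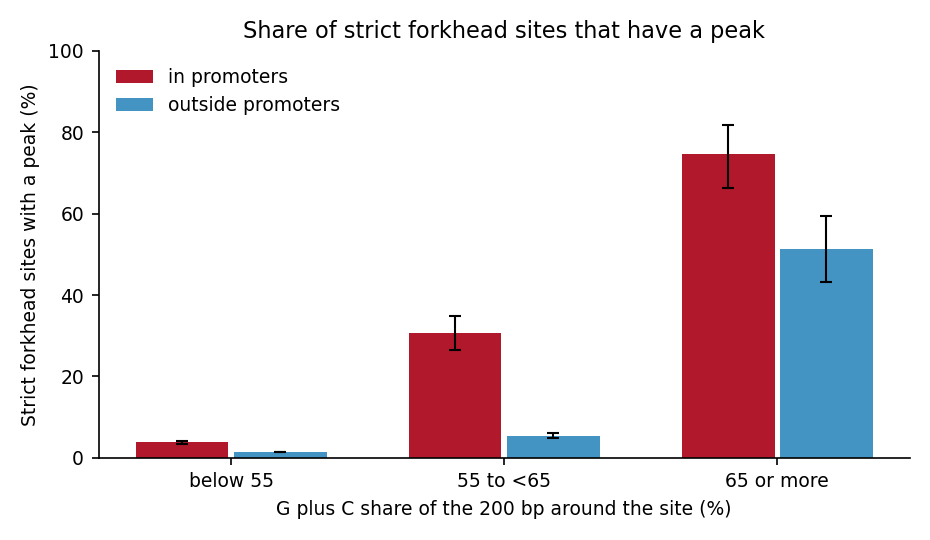
Bars give the percentage of strict forkhead sites of the genome with a peak centre within 50 bp, by the G plus C share of the surrounding 200 bp, in promoters and outside them, with exact 95% intervals. In promoters the share rose from 3.77% below 55% to 74.6% at 65% or more, and outside from 1.45% to 51.3%.

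The share also differed between the forms of the core. In GC-rich promoters a peak was present at 39.8% of GTAAACA, 31.9% of ATAAACA (odds ratio 1.41, exact adjusted p = 0.0106), 20.5% of GTAAATA (odds ratio 2.56, exact adjusted p = 1.18e-07) and 10.3% of ATAAATA (odds ratio 5.75, exact adjusted p = 2.94e-24). At lower local G plus C the shares of the last 3 were 2.38%, 0.960% and 0.404%. The order of the 4 forms was the same in both settings. The 248 strict sites with a peak in GC-rich promoters belonged to 246 peaks, of which 236 are among the 987.

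Sequences of 23 kinds were counted in the same windows, the forkhead core and its strict form among them. Against the flanks, 15 passed an adjusted p of 0.05 (65.2% of those tested; exact McNemar tests with Benjamini-Hochberg adjustment), 11 more frequent in the peaks and 4 less. Against promoter peaks of lower GC content, 13 passed (56.5%; Fisher's exact tests, adjusted likewise), 7 more and 6 less frequent. Against GC-rich peaks outside promoters, 15 passed (65.2%), 8 more and 7 less frequent. Since so many of the sequences passed, a single call says little about that factor. The groups differ in base composition, partly through the rule itself, and shares of short sequences move with it. The shares in GC-rich promoters without a peak are given beside each, at windows centred 100 bp upstream of the TSS.

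Sequences of factors typical of CpG-island promoters ranged from 51.5% to 0.608% of the peaks, and their shares were near or below those of promoters without a peak; these differences were not tested. The SP and KLF sequence GGGCGG was in 51.5% of the peaks, 9.72% of promoter peaks of lower GC content, 30.5% of GC-rich peaks outside promoters and 64.7% of GC-rich promoters without a peak. The ETS sequence CCGGAAG was in 11.7%, 2.74%, 3.28% and 11.3% of the same 4 groups. The NF-Y sequence (CCAAT after a pair of bases that are each A or G) was in 8.51%, 8.22%, 4.39% and 17.4%. Those of NRF1 (GCATGCGC) were in 2.13% of the peaks and 3.84% of promoters without one, of CREB and ATF factors (TGACGTCA) in 2.03% and 2.50%, of USF and MYC (CACGTG) in 5.67% and 8.08%, and of ZBTB33 (CTCGCGAG) in 0.608% and 1.30%. The forkhead core was in 47.5% of the peaks and 2.23% of promoters without one.

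For other sequences the share in promoters without a peak moved with the place of the control window. The comparison with the peaks was not tested. The YY1 sequence AAGATGGC was in 3.95% of the peaks and 1.41% of promoters without a peak, but in 3.78% when the latter windows were centred on the TSS, where most of the peaks lie. The E2F sequence (TTTCCCGC, TTTCGCGC, TTTGCCGC or TTTGGCGC) was in 3.55% of the peaks, 2.80% of promoters without a peak and 3.00% of those centred on the TSS. The same 3 shares were 13.5%, 10.9% and 12.9% for the E-box CAGCTG, 8.41%, 7.56% and 6.12% for the E-box CATCTG, 9.02%, 7.20% and 5.76% for the TEAD sequence GGAATG, and 0.811%, 0.667% and 0.536% for the homeodomain sequence TAATTA. Those of mesenchymal factors were mostly less frequent than in promoter peaks of lower GC content: CATCTG was in 18.8% there, GGAATG in 14.5%, TAATTA in 4.32% and TGACAG, of MEIS and other TALE homeodomain factors, in 15.4% against 8.41%. The other sequences were rare in the peaks: RFX (GTTGCCA) 1.72% and 2.80% of promoters without a peak, CTCF 0.405% and 0.572%, AP-1 (TGACTCA or TGAGTCA) 2.03% and 2.30%, SRF 0.405% and 0.781%, THAP11 (ACTACAA) 2.03% and 2.16% and GLI (GGGTGGTC) 0.507% and 0.705%. The TATA box TATAAA, whose letters can overlap ATAAATA and ATAAACA, was in 6.79% of the peaks and 2.89% of promoters without one. Of 21 sequences compared between GC-rich promoter peaks without a core and with one, it alone passed (3.09% and 10.9%; odds ratio 0.261, Fisher's exact adjusted p = 1.98e-05). Matches that overlap the core were not left out. The difference can therefore follow in part from the split by core and is a description.

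Peaks without the core were looked at for near relatives of it, again after the data had been seen. Any of 6 words that differ from the 4 forms in 1 base was present in 136 of the 518, 26.3%, and in 521 of the 10496 GC-rich promoters without a peak, 4.96%. CTAAACA was in 6.76% of the 518, GTCAACA in 5.79%, ATCAACA in 4.83%, GCAAACA in 4.44%, and TTAAACA and GTAAGCA in 3.28% each. In promoters without a peak these shares ran from 0.562% to 1.86%.

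The 25 highest-scored GC-rich promoter peaks, with scores of 62.3 or more, had a core in 22 and the strict core in 18. The highest, 135.7, lay 1 bp from the TSS of Tenm3, a teneurin adhesion protein, in a window with 75.5% G plus C. Tfap4, a basic helix-loop-helix factor, followed with 127.5, and Pik3ca with 123.8. A peak of 109.4 was shared by Ccni, a cyclin, and 2010109A12Rik. Next came Ttc33 (97.2), Btbd8 (95.2), the noncoding 2900052L18Rik (93.4) and Hjurp (92.8), whose product loads the centromeric histone CENP-A. Hjurp alone of the highest 10 had another form in place of the strict core. Ypel3 had 87.5 and the sharpest focus ratio of these, 0.939.

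The rest of these 25 belonged to genes of unlike function. Ubald1 (84.4), Adipor2 and Ramac (82.0 each), Crebl2 (80.8), Xpo7 (73.8), Frat1 (72.5), Mtmr14 (63.7) and the shared promoter of Ddx5 and Cep95 (62.3) had a strict core, as did Arid5b (67.6), a DNA-binding cofactor, and Tcf4 (77.8), an E-protein partner of basic helix-loop-helix factors. Ramac encodes a cofactor of the mRNA cap methyltransferase and Frat1 an inhibitor of GSK3 in WNT signalling. The shared promoter of Sass6, a centriole assembly factor, and Trmt13 (81.5), Tnrc6b, a partner of Argonaute proteins (72.0), and Wdtc1 (69.0) had another form. Only Mir99ahg (74.9), the promoter shared by Cdc5l and B230354K17Rik (69.8) and the processed pseudogene Gm10060 (64.6) had none.

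The highest-scored peaks without a core began with these 3 and went on with Gm20715 (61.4), Scrt1 (53.9), Spty2d1 (49.5), Hdx (47.8), Glra1 (46.0), Rcan1 (38.8), and Ssbp2 and Castor2 at the same score (37.3). Scrt1 encodes a neuronal transcriptional repressor and Glra1 a glycine receptor subunit. These 2 had the sharpest focus ratios of this group, 0.938 and 0.945, and the latter is the highest of all 987. Scrt1 had 78% G plus C and Glra1 64.5%.

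Promoters with 2 such peaks belonged to 11 genes. The corepressor gene Runx1t1 had 34.1 and 30.2, Trib1 50.5 and 14.7, Etv1 21.3 and 15.9 and Rnf144b 20.9 and 15.0. Cnot8, Cpsf4l, Gm16675, Hipk3, Ppp3ca, Tbl1xr1 and Vps54 had peaks with scores of 15.7 or less. A gene with several start sites has more promoter sequence in which to have a peak.

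GC-rich promoter peaks were present at 934 of 21938 protein-coding genes, 4.26%, and at 766 of the 11649 genes with a GC-rich promoter window, 6.58%. Gene lists are described by their counts beside this background, with no test, since members and lists were chosen with earlier results known. Lists of GC-rich promoters have more room for such peaks than others, so the share among genes with a GC-rich window is given where it matters.

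Known targets of FoxO proteins, the forkhead factors held back by insulin signalling, had a GC-rich promoter peak at 10 of 25 genes (40%), and at 9 of 21 with a GC-rich window (42.9%). Of these 10, 9 had a forkhead core, beside 47.5% of all 987 peaks, a difference that was not tested. Pik3ca (123.8), Bcl2l11 (56), Trib1 (50.5), Insr, the insulin receptor (46.3), Pdk4, a kinase that inhibits pyruvate dehydrogenase (40.7), Txnip, an inhibitor of thioredoxin (32.2), and Irs2, an insulin receptor substrate (16.1), had the strict form. Ddit4 (51.6) and Fbxo32, a muscle ubiquitin ligase (18), had ATAAACA, and Ccng2 (15.4) had none. These genes were assembled as targets of other forkhead proteins, and which family member gives rise to a site cannot be read from its sequence.

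Chromatin modifier genes had them at 21 of 97 (21.6%), and at 18 of 78 with a GC-rich window (23.1%). Arid5b (67.6), Kdm2b (52.7) and Kmt2b (41.7), the latter 2 enzymes of histone demethylation and methylation, and Brd3 (34.7), an acetyl-lysine reader, led the list. The 11 highest-scored of the 21, down to Smarcd3 at 14.9, had a core, and the 10 below them, from Setd3 at 12.8 to 10.3, had none. Circadian clock genes had them at 4 of 19 (21.1%): the repressors Cry1 (42.5) and Per1 (34.9) and the activator Arntl (12.2) with a strict core, and Tef (20.3) with ATAAACA.

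**Figure D5:**
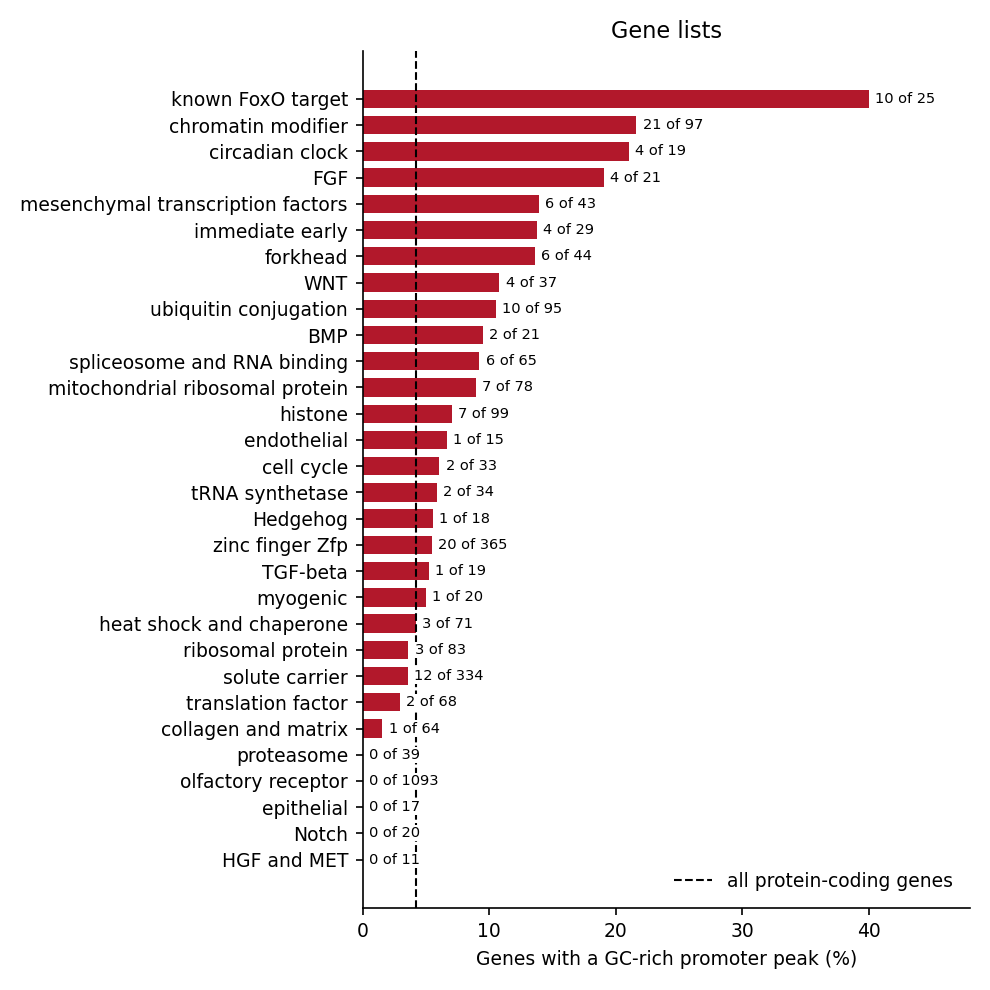
Bars give the percentage of protein-coding genes in each of 30 lists that have a GC-rich promoter peak, with the number of genes printed at the bar and the share over all protein-coding genes, 4.26%, as a dashed line. Known FoxO targets (40%) and chromatin modifiers (21.6%) stand at the top, and 5 lists have no such gene.

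In the lists of signalling pathways of tongue mesenchyme, 12 genes had a GC-rich promoter peak, and the highest-scored one lacked a core at 9 of the 12. Of all 987 peaks, 518 (52.5%) lacked a core, and the difference was not tested. FGF genes had them at 4 of 21 (19.0%): the ETS factors Etv5 (39.2, strict core) and Etv1 (21.3), and the feedback inhibitors Dusp6 (32.7) and Spry1 (11.8), the last 3 without a core. WNT genes had them at 4 of 37 (10.8%): Tcf7l2, the nuclear partner of beta-catenin (30.4, with 2 matches to the core), the co-receptor Lrp6 (13.7), Ctnnb1, which encodes beta-catenin (12.2), and the scaffold Axin1 (10.5), these 3 without a core. BMP genes had them at 2 of 21 (9.52%), the inhibitor genes Smad6 (13.9) and Bambi (13.3, GTAAATA). In the Hedgehog list only Smo, the transducer of the signal, had one (11.4, 1 of 18, 5.56%), and in the TGF-beta list only the ligand gene Tgfb3 (23.7, 1 of 19, 5.26%), both without a core. The HGF and MET list (11 genes) and the Notch list (20 genes) had none. Among genes with a GC-rich window the shares were 3 of 13 (23.1%) for FGF, 4 of 33 (12.1%) for WNT and 2 of 18 (11.1%) for BMP. They were 1 of 15 (6.67%) for Hedgehog and 0 of 16 for TGF-beta, beside 6.58% of all such genes.

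Among regulators, the forkhead family had GC-rich promoter peaks at 6 of 44 genes (13.6%): Foxp1 (32.7, ATAAACA), Foxp2 (29.5, strict), Foxk1 (13.1), Foxj3 (12.1), Foxn3 (11.3) and Foxo4 (10.9, strict). Foxk1, Foxj3 and Foxn3 had no core. Mesenchymal transcription factors had them at 6 of 43 (14.0%), among them Meis1 (40.5) and Osr2 (33.8) with a strict core, and Tbx3 (25.9), Zeb2 (16.4) and Snai2 (13.5) without. Immediate early genes had them at 4 of 29 (13.8%), Btg1 (44.5, strict), Myc (27.8, strict), Dusp1 (12.3, no core) and Nr4a2 (10.5, ATAAATA). Cell cycle genes had them at 2 of 33 (6.06%), the cyclins Ccnd3 (39.2) and Ccne2 (33.8), both with a strict core.

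Several lists of general cell functions were near the background or below it, although many of their promoters are CpG islands. Others, given last, were above it. Ribosomal protein genes had 3 of 83 (3.61%; Rplp0 41.2, Rpl31 12.3, Rps21 10.3), translation factors 2 of 68 (2.94%; Eif5 and Eif3e, both without a core), the proteasome none of 39 and tRNA synthetases 2 of 34 (5.88%; among them Ears2 10.4). Heat shock and chaperone genes had 3 of 71 (4.23%; Hspbp1 27.2, Dnajb4 and Dnajb6 10.8 each), solute carriers 12 of 334 (3.59%; among them Slc25a36 34, Slc39a7 33.4 and Slc5a11 23.1) and Zfp zinc finger genes 20 of 365 (5.48%; led by Zfp740 26.9, Zfp521 20.4, Zfp369 18.9 and the promoter shared by Zfp646 and Zfp668 15.3). Shares were higher for ubiquitin conjugation (10 of 95, 10.5%), spliceosome and RNA binding (6 of 65, 9.23%), mitochondrial ribosomal protein (7 of 78, 8.97%) and histone genes (7 of 99, 7.07%).

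Core and score varied among their members, beside a core in 47.5% of all 987 peaks. The ubiquitin list included Ube2e3 (16.5), Usp3 (14.3) and Ube2b (14.2), none with a core, and only 2 of its 10, Ube2s (11.7) and Usp34 (10.5), had one. The splicing list was led by Hnrnpa2b1 (33.5) and Hnrnpul2 (20.2), both with ATAAACA, then Srsf7 (12.1) and Snrpe (11.2) with none. The mitochondrial list was led by Mrpl34 (33.6, no core), Mrpl40 (21.9, strict), Mrpl21 (12) and Mrpl1 (11.7). The histone list was led by H3f3a (24.1), H1fx (17.3), Hist1h1c (13.4) and H3f3b (12.9), and none of its peaks had a core.

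The lists of matrix and of other cell types are mostly small and are given as counts, beside the 4.26% of all genes. The collagen and matrix list had 1 of 64 (1.56%), Col13a1 (12.3). The myogenic list had 1 of 20 (5%), Mef2d (19.0, no core), the endothelial list 1 of 15 (6.67%), the lymphatic regulator Prox1 (21.5, no core), the epithelial list none of 17 and the olfactory receptor list none of 1093, of which 14 have a GC-rich promoter window.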

How the data were processed

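The deposited table was used as the authors made it: per the submitters' processing notes, Bowtie2 2.4.1, SAMtools 1.7.1 and HOMER were run on mm10, and the design text gives HOMER as the peak caller and the input as its control. The sources used here do not give the caller's settings or say whether the ChIP libraries were pooled. The peak score is the authors' value, as deposited, on a scale that is not stated. The last column, per the file headers a focus ratio or region size, holds fractions and was read as the focus ratio.

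The peaks were placed here against GENCODE M21 basic transcripts and the GRCm38.p6 sequence. Words were matched on both strands. Flanks were compared by exact McNemar tests, keeping the larger p of both sides, and groups of peaks by two-sided Fisher's exact tests. A set of 25 Fisher's exact tests between groups of peaks was adjusted together (Benjamini-Hochberg), and not all of them are given above. Of these, 17 passed an adjusted p of 0.05, as many as without adjustment. The tests of forkhead sites and of the kinds of sequence were adjusted as separate sets and are not in this count. Intervals are exact at 95% (Clopper-Pearson) and cover counting only. The tests were tried on simulated windows.

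Members and gene lists were chosen with earlier results of these data known. Genes are named at the 25 highest-scored members, at the 10 highest-scored without a core (a tie adds 1), where 2 members share a gene, throughout the signalling and forkhead lists, and for up to 4 members of other lists; a few genes that this rule names are not reported here. Further genes in the known FoxO target, mesenchymal factor, chromatin modifier, ubiquitin and RE1 counts, and the sites, related words, promoters without a peak and splits by core, were chosen after values were seen. Printed sequences come from 321 members outside exons. Planned work on replicates could not be run, as no column belonged to 1 library. The scripts ran on scipy 1.17.1, pandas 2.3.3, numpy 2.4.6, pysam 0.24.0, matplotlib 3.10.9 and Python 3.11.15.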

Additional observations from a re-analysis of the deposited data

How the results depend on the processing

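Of 58 alternatives, 43 kept the direction and the side of the threshold, or stayed within the stated spread. With the strict core, the odds ratio against promoter peaks of lower GC content was 0.831 (Fisher's exact p = 0.0558). With peaks scored at or above the median it was 0.827 (exact p = 0.206), and against GC-rich peaks outside promoters it was 1.10 (exact p = 0.528). The odds ratio for the highest-scored decile against all other peaks was 0.995 with a G plus C threshold of 50% and 0.874 with the highest 25%. Against promoter peaks of lower GC content it was 1.54 with protein-coding TSSs only (exact p = 0.0208). The odds ratio for the sharpest decile was 0.801 at a threshold of 60% and 0.892 with the highest 25%. The decile odds ratios that changed direction passed the threshold in neither setting. In the central 100 bp, 9 sequences passed against the flanks and 9 against GC-rich peaks outside promoters, in place of 15 each; the narrower window holds fewer matches. The share of protein-coding genes with a peak was 3.20% from the 5′-most TSS alone and 1.86% with peaks at or above the median score. The core was in 1.77% of GC-rich promoters without a peak at windows centred on the TSS and 1.78% at 200 bp upstream, and 35.6% of strict sites had a peak centre within 25 bp. These last 3, and a limit of 100 bp (40.6%), were added after the data were seen. No paired analysis was possible because the peak list has no values per library.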

Other observations

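The sequence RE1, bound by the repressor REST of neuronal genes, was searched after the sharpest peaks without a core had been seen. With up to 2 mismatches at the fixed positions it was present in 6 of the 518 GC-rich promoter peaks without a forkhead core (1.16%), in 1 of the 469 with one (0.213%), in 0 of 356 promoter peaks of lower GC content without a core, and in 14 of 10496 GC-rich promoters without a peak (0.133%). The 6 were at Gm20715 (score 61.4, no mismatch), Scrt1 (53.9, 1 mismatch), Glra1 (46.0, 1 mismatch), Gm43851 (16.3, 2 mismatches), Drd3, a dopamine receptor gene (13.4, 1 mismatch), and Carmn, a long noncoding RNA gene (10.8, 2 mismatches). The 1 with a core was at Gm14397 (29.0, 1 mismatch). Scrt1, Glra1 and Gm14397 had focus ratios of 0.938, 0.945 and 0.905, and Carmn 0.579. With up to 3 mismatches the counts were 10 of 518, 3 of 469, 7 of 356 and 82 of 10496, and the difference between the peaks without a core in GC-rich promoters (1.93%) and in those of lower GC content (1.97%) was no longer seen.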
